A study of Mus musculus with 9 samples.

Results

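The 10 transcripts that mark macrophages of the heart were followed across 9 RNA sequencing libraries of mouse cardiac ventricles. They were found by symbol, and 10 of 10 were present among the 24391 gene symbols of the deposited table. The resident markers were Lyve1, Timd4 and Folr2, the recruited marker was Ccr2, and the other 6 were Cd163, Mrc1, Csf1r, Cd68, Cd14 and Lyz2. All mice were C57BL/6, and each group held 3 libraries. Stabilized beta-catenin adults were 15 weeks old, positive for the alphaMHC Cre recombinase and lacked exon 3 of beta-catenin, which leaves a protein that escapes degradation. Adult controls were also 15 weeks old and positive for alphaMHC Cre, with wild-type beta-catenin. P6 libraries came from wild-type pups on postnatal day 6, with no Cre named. The alphaMHC promoter drives Cre in cardiomyocytes, so the deletion is directed to muscle cells of the ventricle. Both adult groups are marked in the labels as a re-analysis, so P6 libraries differ from adult ones in age, Cre genotype and library set at once, and these cannot be told apart.

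The mouse heart is seeded with macrophages before birth, and part of that population renews itself locally through adult life. These long-lived cells carry the hyaluronan receptor LYVE1, the phosphatidylserine receptor TIMD4 and the folate receptor FOLR2 on their surface. Macrophages derived from blood monocytes enter through the chemokine receptor CCR2 and become more frequent after injury. Ventricular tissue is mostly muscle by mass, so these transcripts form a small part of each library.

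Totals of assigned reads were 14965316 to 23236129 in stabilized beta-catenin libraries, 15234366 to 21568022 in adult controls and 7467551 to 7913057 at P6. The ribosomal RNA precursor Rn45s took 0.378% to 8.40% of reads. Ctnnb1, the beta-catenin gene, had 8117, 8391 and 7626 normalized counts with stabilized beta-catenin, against 7543, 7614 and 8369 in adult controls, and counts per gene cannot show a missing exon. Axin2, a feedback target of beta-catenin, stood at 489, 670.0 and 740 normalized counts in stabilized beta-catenin libraries, against 50.8, 92.0 and 88.6 in adult controls, which fits the labels. Cardiomyocyte markers (7 genes) summed to 931712 to 983208 normalized counts with stabilized beta-catenin, 1038830 to 1112340 in adult controls and 533210 to 605011 at P6. A normalized count is a read count divided by 1 factor per library. The labels do not say whether libraries came from separate animals, so p-values measure the spread between libraries.

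All 10 markers were higher in adult control ventricles than at P6, in a comparison in which 62.5% of all genes tested passed the threshold, 31.3% in the higher direction. The differences ran from 1.67-fold for Cd68, a lysosomal glycoprotein of macrophages, to 21.8-fold for the haemoglobin scavenger receptor Cd163. The difference was 6.45-fold for Lyve1 and 11.5-fold for Folr2 among the resident markers, beside 2.22-fold for the recruited marker Ccr2. With stabilized beta-catenin, Ccr2 was 2.83-fold above adult control, with no overlap between the libraries (as for 9.84% of all genes), but missed the threshold after adjustment. The resident markers stood at 0.685-fold (Lyve1), 0.751-fold (Timd4) and 0.753-fold (Folr2) of adult control and overlapped with it. These folds come from the log2(normalized count + 1) scale, which understates the change of low transcripts.

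**Figure D1:**
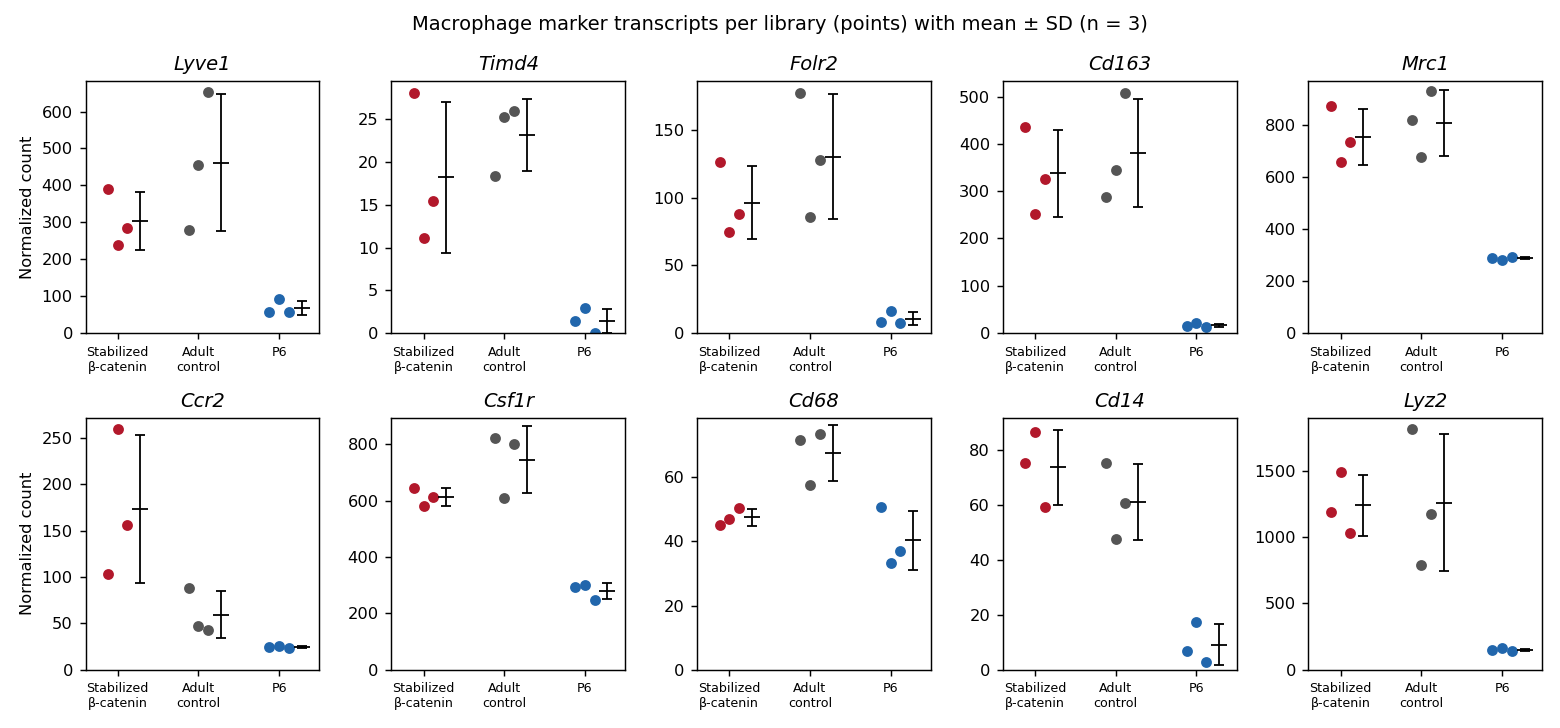
Normalized counts of the 10 macrophage marker transcripts in each library, in stabilized beta-catenin, adult control and P6 ventricles. Points are libraries and the bars beside them give the mean and SD of 3 libraries; the P6 libraries lie below both adult groups in each panel except that of Cd68, and Ccr2 is highest with stabilized beta-catenin.

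Lyve1 had 391, 239 and 283 normalized counts with stabilized beta-catenin, 279, 454 and 652 in adult controls, and 56.2, 91.1 and 57.9 at P6. Both adult groups lay above every P6 library and overlapped with each other. The log2 fold change of adult control against P6 was 2.69 (SE 0.31, limma, Benjamini-Hochberg adjusted p = 1.07e-04). In bulk tissue, fewer cells of a type and less RNA per cell cannot be told apart. LYVE1 also marks lymphatic endothelium, so the markers of those vessels were set beside it. The 6 lymphatic genes summed to 1930 to 2543 normalized counts with stabilized beta-catenin, 1305 to 2746 in adult controls and 2250.0 to 2446 at P6. Prox1 was the largest part of these sums, with means of 1150 with stabilized beta-catenin, 1012 in adult controls and 1456 at P6. The sums therefore do not show the other genes apart. Ccl21a, a chemokine of lymphatic vessels, had 0 reads in every group. Of the 5 lymphatic genes tested between adult control and P6, 1 was higher, the matrix protein gene Mmrn1 (log2 fold change 2.54, adjusted p = 2.92e-05), and 1 was lower, the VEGF receptor gene Flt4 (-0.73, adjusted p = 0.0345). The Flt4 call was lost without adult control library 3 or any 1 P6 library, where 0 genes of this list were lower. Over all genes tested between adult control and P6, 31.3% were higher and 31.2% lower. The part of these vessels in the Lyve1 difference was not tested.

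Timd4 rested on the fewest reads of the markers. It had 28.1, 11.1 and 15.4 normalized counts with stabilized beta-catenin, 18.3, 25.3 and 25.9 in adult controls, and 1.37, 2.89 and 0 at P6. The P6 values rest on 1, 2 and 0 reads. Over the libraries, 83 adult control reads stood against 3 P6 reads, a ratio after scaling of 16.2 (95% counting interval 5.35 to 80.1). With stabilized beta-catenin there were 67 reads, a ratio to P6 of 12.1 (3.98 to 60.3). The intervals cover counting error only. The fitted log2 fold change of adult control against P6 was 3.51 (SE 0.54, adjusted p = 5.68e-04) and was 2.15 with a pseudocount of 5. Timd4 passed the filter on low values through its adult libraries alone.

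Folr2 had 126, 74.4 and 87.7 normalized counts with stabilized beta-catenin, 177, 85.9 and 127 in adult controls, and 8.22, 15.9 and 7.43 at P6. The adult groups overlapped, and the lowest adult library stood well above the highest P6 library. Adult control exceeded P6 by 3.52 on the log2 scale (SE 0.35, adjusted p = 4.99e-05). In the GENCODE annotation of GRCm38 a predicted gene on the opposite strand, Gm10602, shares 975 exon bases with Folr2 (63.1% of its exons), and reads of both cannot be told apart where strand was not used in counting.

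Ccr2, the receptor of monocyte chemoattractant chemokines, had 103, 260.1 and 156 normalized counts with stabilized beta-catenin, 88.3, 47.5 and 42.5 in adult controls, and 24.7, 26.0 and 23.8 at P6. The 3 groups did not overlap, although the lowest stabilized beta-catenin library and the highest adult control library were close. Stabilized beta-catenin exceeded adult control by 1.50 on the log2 scale (SE 0.38, 95% interval 0.63 to 2.37), with an unadjusted p of 0.00391 and an adjusted p of 0.114. Over the alternatives its adjusted p ran from 0.00308 to 0.329. DESeq2 called it (adjusted p = 0.00308), as did limma with all groups in 1 fit (adjusted p = 0.0354) and limma without adult control library 1 (log2 fold change 1.82, adjusted p = 0.0280). Those settings called 564, 516 and 402 of all genes, in that order, against 233 in the main fit. Adult control exceeded P6 by 1.15 (SE 0.29, adjusted p = 0.00811), a call lost with total-count scaling (0.74, adjusted p = 0.0764). Stabilized beta-catenin exceeded P6 by 2.65 (SE 0.29, adjusted p = 1.86e-05).

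The promoters of the compared resident and recruited markers are given with that of Mrc1, which held the most motif matches among the 7 markers scanned. RefSeq promoters on GRCm38.p6, from 250 bases before to 50 bases after the start, were scanned for 7 of the 10 genes. Lyve1 had no entry, and Csf1r and Cd14 were left out of the scan, so their promoters were not examined. Capitals mark GAGGAA, the box of the myeloid factor PU.1, and CTTTGA, the core that TCF and LEF factors, the partners of beta-catenin, recognise, on either strand. Timd4 lies at chr11:46810549-46810848 on the plus strand, Folr2 at chr7:101857141-101857440 on the minus strand, Ccr2 at chr9:124101933-124102232 on the plus strand and Mrc1 at chr2:14229164-14229463 on the plus strand.
Timd4: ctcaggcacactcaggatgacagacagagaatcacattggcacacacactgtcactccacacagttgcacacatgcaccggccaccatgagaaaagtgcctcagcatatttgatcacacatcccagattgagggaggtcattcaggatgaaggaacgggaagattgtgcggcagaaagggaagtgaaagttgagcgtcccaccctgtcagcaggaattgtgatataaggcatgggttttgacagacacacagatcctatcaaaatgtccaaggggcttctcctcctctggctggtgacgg
Folr2: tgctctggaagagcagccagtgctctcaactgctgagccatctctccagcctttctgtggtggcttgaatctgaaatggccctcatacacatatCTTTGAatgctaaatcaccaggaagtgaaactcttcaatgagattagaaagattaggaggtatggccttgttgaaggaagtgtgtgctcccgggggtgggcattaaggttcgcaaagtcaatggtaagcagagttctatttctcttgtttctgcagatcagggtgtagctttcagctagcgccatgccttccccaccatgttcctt
Ccr2: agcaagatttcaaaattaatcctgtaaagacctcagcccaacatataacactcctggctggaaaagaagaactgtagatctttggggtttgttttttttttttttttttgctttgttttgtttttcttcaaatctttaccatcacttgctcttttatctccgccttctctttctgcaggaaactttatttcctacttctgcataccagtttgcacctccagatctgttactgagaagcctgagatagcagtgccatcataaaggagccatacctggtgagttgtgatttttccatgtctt
Mrc1: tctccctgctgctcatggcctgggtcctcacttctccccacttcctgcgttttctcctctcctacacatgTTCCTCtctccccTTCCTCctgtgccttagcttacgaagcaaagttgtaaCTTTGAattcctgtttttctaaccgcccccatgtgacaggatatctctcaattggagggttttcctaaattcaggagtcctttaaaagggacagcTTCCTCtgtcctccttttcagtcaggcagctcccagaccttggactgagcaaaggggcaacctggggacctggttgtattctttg
Mrc1 held 3 matches to GAGGAA and 1 to CTTTGA, and Folr2 held 1 match to CTTTGA in this entry and 0 in its other entry. Timd4 and Ccr2 held neither, and outside these 4 sequences the Cd68 promoter held 2 matches to GAGGAA. Of 32851 promoters of 300 bases, 28.3% held GAGGAA and 16.0% held CTTTGA, so such a match is common and describes the sequence only.

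Cd163 had 436, 252 and 325 normalized counts with stabilized beta-catenin, 287, 346 and 508 in adult controls, and 15.1, 20.2 and 13.4 at P6. Its adult libraries overlapped with each other and stood far above P6, with a log2 fold change of adult control against P6 of 4.45 (SE 0.25, adjusted p = 2.72e-06). That was the largest difference among the 10. Mrc1, the mannose receptor, had 874, 659 and 734 normalized counts with stabilized beta-catenin, 822, 678 and 932 in adult controls, and 291, 283 and 293 at P6. The P6 libraries were nearly equal to one another and the adults lay above them by 1.47 on the log2 scale in adult control (SE 0.14, adjusted p = 3.72e-05).

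Csf1r, the receptor for the growth factors that keep macrophages alive, had 645, 580.2 and 613 normalized counts with stabilized beta-catenin, 823, 608 and 802 in adult controls, and 293, 301 and 248 at P6. Adult control exceeded P6 by 1.40 on the log2 scale (SE 0.16, adjusted p = 8.89e-05). Csf1r shares 873 exon bases (15.1%) with Hmgxb3 on the opposite strand. Hmgxb3 had 458, 507 and 472 normalized counts with stabilized beta-catenin, 517, 511 and 499 in adult controls, and 718, 698 and 737 at P6, so it was lower in adults where Csf1r was higher.

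Cd68 had the smallest difference between adult control and P6 of the 10. It had 45.1, 47.1 and 50.4 normalized counts with stabilized beta-catenin, 71.7, 57.6 and 73.4 in adult controls, and 50.7, 33.2 and 37.1 at P6. All stabilized beta-catenin libraries lay below all adult control libraries and among those of P6. Adult control exceeded P6 by 0.74 on the log2 scale (SE 0.23, adjusted p = 0.0183). That call was lost with total-count scaling (0.32, adjusted p = 0.283) and without adult control library 3 (adjusted p = 0.0651), P6 library 2 (0.0723) or P6 library 3 (0.0586). Against adult control, the log2 fold change of Cd68 with stabilized beta-catenin was -0.49 (SE 0.19, unadjusted p = 0.0296, adjusted p = 0.323).

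Cd14, the co-receptor for lipopolysaccharide, had 75.2, 86.4 and 59.3 normalized counts with stabilized beta-catenin, 75.0, 47.5 and 60.5 in adult controls, and 6.85, 17.3 and 2.97 at P6. The adult groups overlapped and both lay above P6, by 2.88 on the log2 scale in adult control (SE 0.51, adjusted p = 0.00116; 2.34 without P6 library 3 and 3.45 without P6 library 2). Lyz2, the lysozyme gene of macrophages, monocytes and granulocytes, had 1189, 1495 and 1036 normalized counts with stabilized beta-catenin, 1818, 792 and 1173 in adult controls, and 148, 160.4 and 138 at P6. Adult control exceeded P6 by 2.99 on the log2 scale (SE 0.26, adjusted p = 2.30e-05). Its near-identical copy Lyz1 had at most 24.8 normalized counts in an adult library and 0 at P6, and how reads were shared between the copies is uncertain. Neutrophil markers (10 genes) summed to 12.4 to 72.2 normalized counts with stabilized beta-catenin, 18.7 to 23.3 in adult controls and 67.9 to 257 at P6, and Elane, a granule protease, had 0 reads in every group.

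Between adult control and P6, 10 of 10 markers passed the threshold in the higher direction, where of all 13398 genes tested 31.3% were higher and 31.2% lower. The adult control libraries lay above P6 without overlap for each of the 10, where 34.7% of all genes did so and 35.6% lay below. The median log2 fold change of the 10 was 2.78, against -0.017 over all genes tested. Since Timd4 entered through its adult libraries alone, its call is a description, and the other 9 reached the filter in at least 1 P6 library. Total-count scaling shifted the median of all genes to -0.45, with 2294 genes higher and 6475 lower in place of 4198 and 4182, and under it 8 of the 10 markers passed.

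Between stabilized beta-catenin and P6, 9 of 10 were higher, where 72.3% of genes passed in either direction, 36.5% higher and 35.8% lower. The same 9 lay above P6 without overlap, where 38.7% of all genes lay above and 38.3% below. Timd4 is among these 9 but reached the filter through stabilized beta-catenin libraries alone, so its call is a description. The exception was Cd68, at 0.25 (95% interval -0.23 to 0.74, adjusted p = 0.318), which turned to -0.15 with total-count scaling. The other log2 fold changes ran from 1.13 for Csf1r through 2.14 for Lyve1 and 3.11 for Folr2 to 4.28 for Cd163. This comparison shares its P6 libraries with the one before, so the 2 sets of values are not independent.

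With stabilized beta-catenin against adult control, 0 of 10 passed limma's threshold, where 1.8% of genes passed, 1.49% higher and 0.308% lower. At an unadjusted p under 0.05 there were 2, Ccr2 and Cd68, and DESeq2 called 1, which was Ccr2, while edgeR called 0. Over all genes DESeq2 called 564 and edgeR 253, against 233 with limma. The share of all genes at an unadjusted p under 0.05 was not counted, here or for the lists below. The median log2 fold change of the 10 was -0.22, against -0.00066 over all genes. Groups did not overlap for Ccr2 (higher) and Cd68 (lower), as for 9.84% and 9.19% of all genes. The 95% intervals of the log2 fold change ran from -1.25 to 0.16 for Lyve1, from -1.09 to 0.27 for Folr2 and from -0.61 to 0.70 for Lyz2, so differences inside these bounds were not resolved with 3 libraries a group.

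**Figure D2:**
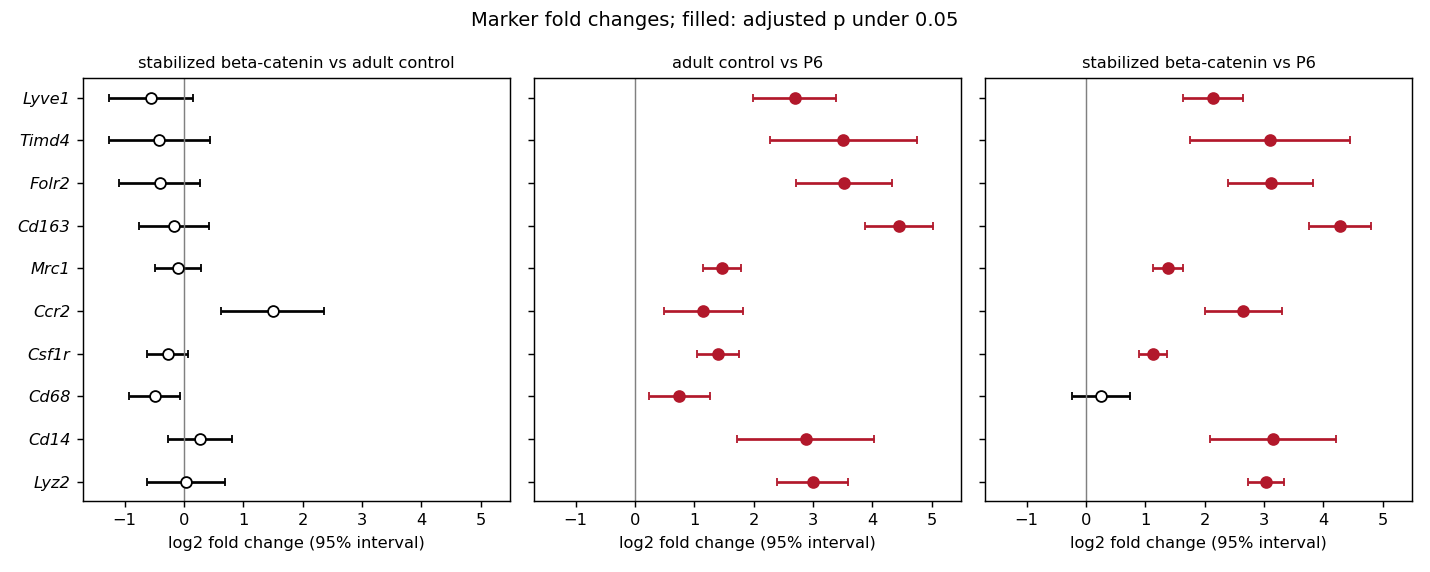
Log2 fold change with 95% interval of each marker in stabilized beta-catenin against adult control, adult control against P6 and stabilized beta-catenin against P6. Filled points passed an adjusted p of 0.05 in limma: 0, 10 and 9 of the 10 markers. Timd4 entered both comparisons with P6 through adult libraries alone.

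Levels of different transcripts were compared per kilobase of exon (GENCODE, GRCm38, a later build than the one used for counting). In each group Lyz2 was the most abundant, at 942 normalized counts per kilobase with stabilized beta-catenin, 958 in adult controls and 113 at P6, and its libraries lay apart from those of the next gene. In adult controls Lyve1 (158), Csf1r (129), Mrc1 (127), Folr2 (84.3), Cd163 (69.7) and Cd68 (53.8) followed, each overlapping with its neighbour. Cd14 (35.2) lay apart from both neighbours, and Timd4 (10.7) and Ccr2 (8.79) closed the order and overlapped. With stabilized beta-catenin Mrc1 (119), Csf1r (106) and Lyve1 (104) overlapped, and Lyve1 lay apart from Folr2 (62.2). Cd163 (61.9), Cd14 (42.5), Cd68 (37.8) and Ccr2 (25.6) followed Folr2 as overlapping neighbours, and Ccr2 lay apart from and above Timd4 (8.37). At P6 Csf1r (48.6) and Mrc1 (45.3) overlapped and lay apart from Cd68 (32.1), which overlapped with Lyve1 (23.4). Folr2 (6.80), Cd14 (5.23), Ccr2 (3.67) and Cd163 (2.97) followed as overlapping neighbours, and Timd4 (0.654) lay apart at the bottom.

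The markers were also expressed relative to Csf1r of the same library. Library scaling cancels in this difference except through the 1 added before the log2, which matters where counts are low. In adult control against P6, 6 of the 9 other markers were higher relative to Csf1r with no overlap, 1 was lower and 2 overlapped, where 4.26% of all genes were higher and 82.8% lower by the same measure. Csf1r itself was above P6 by 1.40 in adult control and by 1.13 with stabilized beta-catenin. An unchanged gene therefore falls to the lower side, and the shares over all genes follow the choice of reference. Cd163 was 8.29-fold higher per Csf1r, and the log2 differences of Folr2, Timd4 and Lyve1 were 2.13, 2.12 and 1.29. Mrc1 kept close to Csf1r, at a log2 difference of 0.078 with overlap. Cd68 was lower relative to Csf1r (-0.65) without overlap. In stabilized beta-catenin against P6, 7 of the 9 were higher relative to Csf1r, 1 was lower and 1 overlapped, where 6.64% of all genes were higher and 77.8% lower. Timd4 is counted as higher in both comparisons but rests on 3 reads at P6 and reached the filter through adult libraries alone. Its relative values are descriptions.

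Ccr2 relative to Csf1r stood at -2.63, -1.15 and -1.97 (log2) with stabilized beta-catenin, at -3.21, -3.65 and -4.21 in adult controls, and at -3.52, -3.48 and -3.33 at P6. Adult control and P6 overlapped (difference -0.24), and all stabilized beta-catenin libraries lay above both. The difference from adult control was 1.77, a 3.41-fold higher ratio, and that from P6 was 1.52. Against adult control, stabilized beta-catenin had 2 of 9 markers higher relative to Csf1r without overlap (Ccr2 and Cd14, the second by 0.54), 1 lower (Cd68, -0.22) and 6 with overlap, where 25.4% of all genes were higher and 1.61% lower. Csf1r itself stood at -0.27 against adult control (limma, adjusted p = 0.543), so an unchanged gene leans to the higher side here. Without this reference Ccr2 was 2.83-fold and Cd14 1.21-fold of adult control. These relative values were not tested for significance, and an exact permutation test of 3 against 3 libraries cannot go below p = 0.1.

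**Figure D3:**
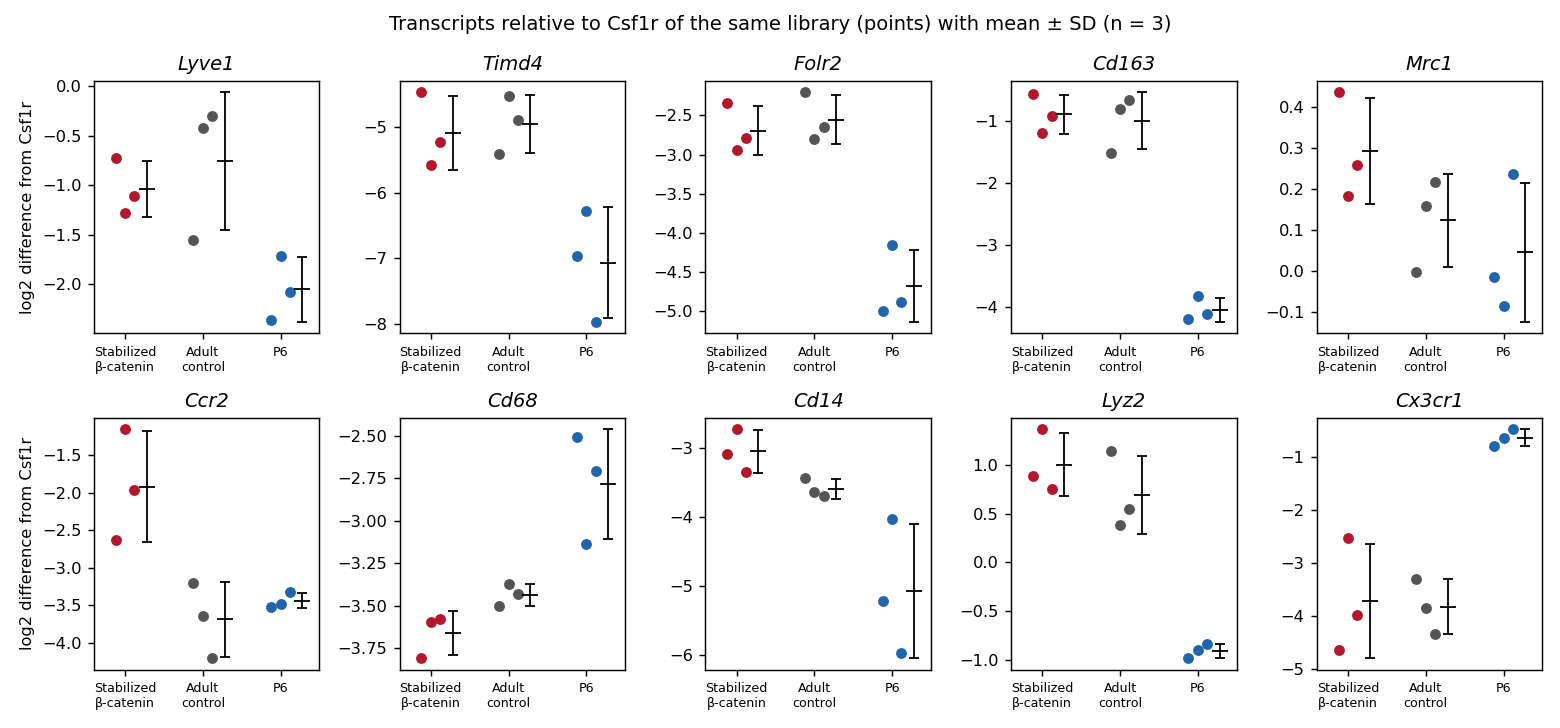
Log2 difference of each marker, and of Cx3cr1, from Csf1r in the same library, for stabilized beta-catenin, adult control and P6 ventricles. Points are libraries with the mean and SD of 3 beside them; Ccr2 stands highest with stabilized beta-catenin, Cd163 lowest at P6 and Cx3cr1 highest at P6.

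The balance of resident to recruited markers was taken in each library as the mean log2 value of Lyve1, Timd4 and Folr2 minus that of Ccr2. It was 0.12, -2.11 and -1.07 with stabilized beta-catenin, 0.15, 1.06 and 1.59 in adult controls, and -1.25, -0.57 and -1.64 at P6. Adult controls lay above P6 without overlap, by 2.09. Timd4, 1 of the 3 resident markers in the balance, rests on 3 reads at P6 and reached the filter through adult libraries alone. Its part in both comparisons with P6 is a description, and its size depends on the pseudocount. The log2 fold change of Timd4 in adult control against P6 was 3.51, and 2.15 with a pseudocount of 5. Stabilized beta-catenin lay below adult control by 1.96, but its highest library and the lowest adult control library were nearly level. Stabilized beta-catenin and P6 overlapped (-1.02 ± 1.12 and -1.16 ± 0.55, SD, n = 3 each). The levels behind the balance differed between them, since each of Lyve1, Timd4, Folr2 and Ccr2 was lower in every P6 library than in any stabilized beta-catenin library. As counts, the ratio of Lyve1 to Ccr2 was 3.79, 0.918 and 1.82 with stabilized beta-catenin, 3.16, 9.55 and 15.4 in adult controls, and 2.28, 3.50 and 2.44 at P6.

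Libraries of 1 group also differed from each other. Stabilized beta-catenin library 2 had the highest Ccr2 of its group and the lowest Lyve1, Timd4, Folr2 and Cd163. Adult control library 1 had the highest Ccr2 of its group and the lowest Lyve1, Timd4 and Cd163, but also the highest Folr2. Cx3cr1, the fractalkine receptor of monocytes and young macrophages, was highest in the same libraries, at 100.1 normalized counts in stabilized beta-catenin library 2 and 83.3 in adult control library 1. The share of Rn45s reads was 7.77% in stabilized beta-catenin library 2, the highest of its group, and 1.87% in adult control library 1, the lowest of its group. Without stabilized beta-catenin library 2 the balance differed from adult control by -1.41, and without stabilized beta-catenin library 1 by -2.53.

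**Figure D4:**
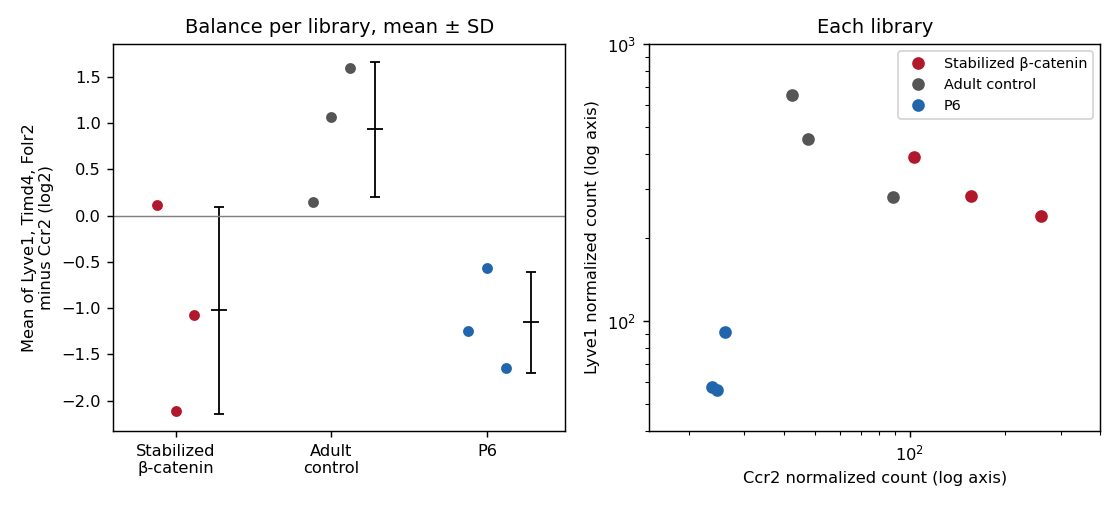
Left, balance of Lyve1, Timd4 and Folr2 against Ccr2 (log2) in each library with mean and SD of 3. Right, Lyve1 against Ccr2 normalized counts on log axes; stabilized beta-catenin and adult control libraries lie high on the Lyve1 axis, stabilized beta-catenin to the right, and P6 libraries at the lower left.

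Other macrophage genes were read from a list of 20 core genes without the 10 markers. Between adult control and P6, 17 were higher and 1 lower, where of all genes tested 31.3% were higher and 31.2% lower. The median log2 fold change of the list was 1.21. With total-count scaling 10 of the list were higher and 1 lower, where 2294 of all genes were higher and 6475 lower. The complement genes C1qa (679.6, 572 and 485 normalized counts with stabilized beta-catenin, 901, 607 and 691 in adult controls, 110, 149 and 114 at P6; log2 fold change of adult control against P6 2.54) and C1qc (2.38) led. The 1 lower gene, named after its values were seen, was Cx3cr1. It had 25.1, 100.1 and 37.9 normalized counts with stabilized beta-catenin, 83.3, 41.5 and 38.9 in adult controls, and 169, 194 and 178 at P6 (adult control against P6 -1.79, SE 0.28, adjusted p = 5.86e-04). So the fractalkine receptor stood above both adult groups at P6, where Csf1r and the complement genes stood below them. Against P6, stabilized beta-catenin had 15 of these 20 higher and 1 lower, where 36.5% of all genes were higher and 35.8% lower. With total-count scaling 9 were higher and 2 lower, where 2939 of all genes were higher and 6927 lower. Against adult control, 0 of 20 passed limma's threshold, with 1 at an unadjusted p under 0.05 and 0 called by edgeR or DESeq2.

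Of 18 further genes associated with resident macrophages, 12 were tested between adult control and P6, and 8 were higher and 2 lower. Of the 8, Fcna and Ccl24 reached the filter on low values through adult libraries alone, so their calls are descriptions. Among the 10 genes that reached it in both groups 6 were higher and 2 lower, where of all genes tested 31.3% were higher and 31.2% lower. Cbr2, a carbonyl reductase, had 132, 78.7 and 91.3 normalized counts with stabilized beta-catenin, 136, 116 and 145 in adult controls, and 6.85, 11.6 and 4.46 at P6. Adult control exceeded P6 in Cbr2 by 4.03 on the log2 scale (SE 0.32, adjusted p = 1.41e-05). The lectin gene Fcna had 48.3, 27.3 and 40.3 normalized counts in adult controls and 2.74, 2.89 and 2.97 at P6. The 2 lower genes, named after their values were seen, were Igf1 (-2.04), an insulin-like growth factor, and Ednrb (-0.49), an endothelin receptor, both made by other heart cells too. Cd5l had at most 1 read in a library. With stabilized beta-catenin against adult control 15 were tested and 0 passed limma's threshold, with 1 at an unadjusted p under 0.05 and 0 called by edgeR or DESeq2. The 1, named after its values were seen, was Fcna (log2 fold change -1.46, SE 0.44, limma, adjusted p = 0.188). Its stabilized beta-catenin libraries lay below those of adult control without overlap, as for 9.19% of all genes.

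Of 16 genes associated with monocytes and recruited cells, 8 were tested between adult control and P6, and 0 were higher and 5 lower. Plac8, 1 of the 5, reached the filter through P6 libraries alone, and of the 7 genes that reached it in both groups 4 were lower. Of all genes tested, 31.3% were higher and 31.2% lower. The largest differences were in Fn1 (-3.55) and Vcan (-2.84), matrix genes that fibroblasts also make. Fn1 had 745, 1694 and 1371 normalized counts with stabilized beta-catenin, 548, 1429 and 1558 in adult controls, and 13022, 13349 and 11234 at P6. Ccr2 itself, not on this list, differed in the other direction. Some genes of the list were rare: Ly6c2 had 13 reads, Chil3 7 and Ear2 2 over the 9 libraries. Others were not, with 319 reads for Itgal, 306 for Cd52, 272 for Ccr1 and 206 for Spn. Itgal had 15.8, 26.3 and 14.4 normalized counts in adult controls and 75.4, 109.8 and 72.8 at P6. It was among the lower genes (-2.15, limma, adjusted p = 2.47e-04), while Cd52, Ccr1 and Spn were tested and not called. In stabilized beta-catenin against adult control, 7 were tested and 0 passed limma's threshold, 0 also at an unadjusted p under 0.05 and with edgeR and DESeq2.

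Growth factors and chemokines that feed or attract macrophages made a list of 9, of which 8 were tested between adult control and P6, with 5 higher and 1 lower (3 and 1 of 7 with total-count scaling). Il34, a ligand of CSF1R, had 41.1, 41.9 and 44.4 normalized counts with stabilized beta-catenin, 36.7, 51.6 and 64.8 in adult controls, and 13.7, 21.7 and 17.8 at P6 (adult control against P6 1.46, SE 0.29, adjusted p = 0.00228). Ccl12, a ligand of CCR2, had 17.5, 11.1 and 12.96 normalized counts in adult controls and 5.48, 5.78 and 2.97 at P6. It reached the filter through adult libraries alone, so its call is a description, and of the 6 genes that reached it in both groups 4 were higher and 1 lower. Among all genes tested, 31.3% were higher and 31.2% lower. For stabilized beta-catenin against adult control 0 of 8 passed limma's threshold. The 1 with an unadjusted p under 0.05, named after its values were seen, was the chemokine gene Cxcl12. It had 1995, 1698 and 2070 normalized counts with stabilized beta-catenin and 2975, 5007 and 3698 in adult controls, without overlap (log2 fold change -0.99, SE 0.20, adjusted p = 0.0520). Cxcl12 was called lower by edgeR and DESeq2, with total-count scaling, without the filter, with all groups in 1 fit and without adult control library 1. Over all genes those settings called 253, 564, 257, 253, 516 and 402, in that order, against 233 in the main fit.

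**Figure D5:**
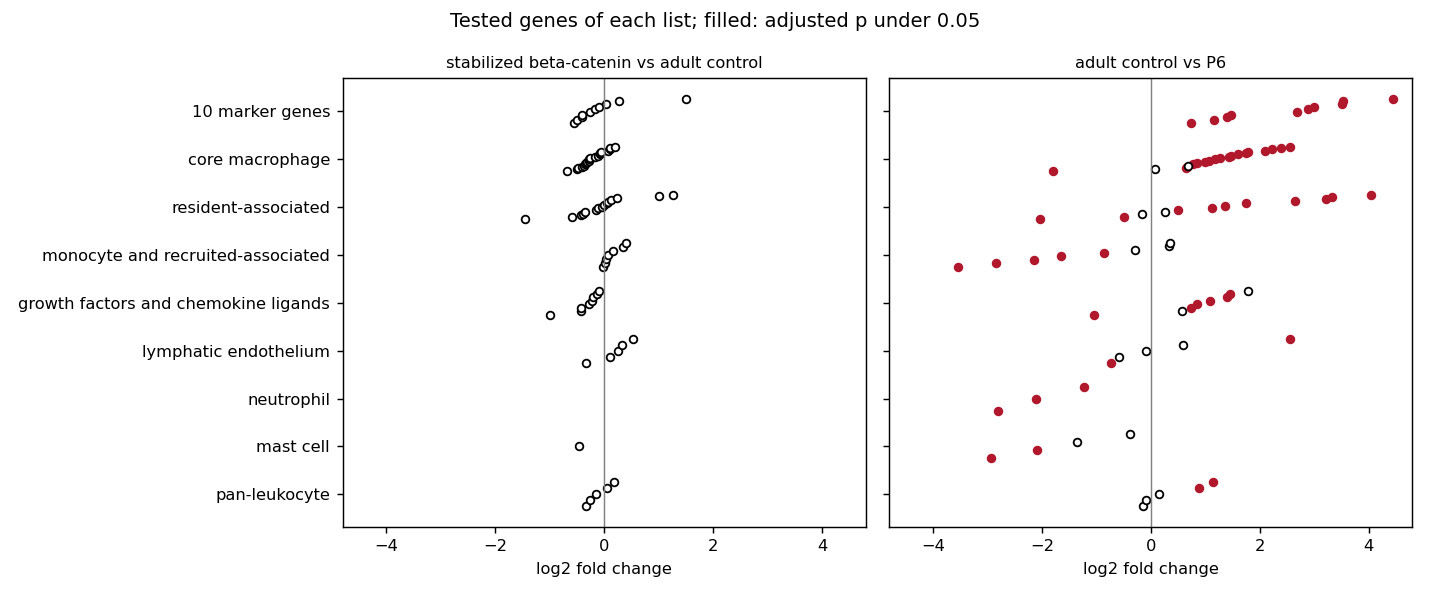
Log2 fold changes of the tested genes of each list, in stabilized beta-catenin against adult control and in adult control against P6. Filled points passed an adjusted p of 0.05, and none did in the left panel. In the right panel the core and resident-associated genes lie mostly above 0 and the monocyte-associated genes mostly below. Of the filled points there, Timd4, Fcna, Ccl24 and Ccl12 entered the test through adult libraries alone. Plac8, Cma1, and S100a8 and S100a9, 2 of the 3 neutrophil genes, entered through P6 libraries alone. The direction of these points is a description.

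For 4 of the markers the 3 other genes with the most similar profile were taken, by Pearson's r of log2 values over the 9 libraries among 11112 genes averaging 50 normalized counts or more. The libraries share their scaling and fall into adult and P6 sets, and r is given as a description only. Lyve1 was closest to Mocos (0.990), Pkdrej (0.988) and Eid2b (0.986). Folr2 was closest to Mief2 (0.998), Mcee (0.996) and Slc25a12 (0.995), and Cd163 to Cd99l2 (0.998), Slc35e1 (0.997) and Dazap2 (0.997). Ccr2, which was highest with stabilized beta-catenin, was closest to Nt5e (0.970), Becn1 (0.968) and Lmo2 (0.966). Lmo2 averaged 905 ± 260.4 normalized counts with stabilized beta-catenin, 379 ± 16.0 in adult controls and 205 ± 28.9 at P6 (SD, n = 3 each).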

How the data were processed

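RNA of cardiac ventricles was sequenced in 9 libraries, grouped by their labels into stabilized beta-catenin, adult control and P6. Per the submitters' processing notes, Bowtie2 2.0, DESeq2 and the build mm9 were used, and the file headers name htseq-count as the counter. Annotation and strand setting are not given in the sources used here. The authors deposited a normalized signal per gene, equal to its read count divided by 1 factor per library. They also deposited raw read counts of the P6 libraries. After multiplication by the factor, 100% of values were whole within 0.001.

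Each comparison used its own 2 groups. A gene was tested where 3 or more of the 6 libraries had 10 or more normalized counts. The test was limma 3.58.1 in R 4.3.3 on log2(normalized count + 1) (moderated variance with intensity trend, two-sided), adjusted by Benjamini-Hochberg over all tested genes, threshold 0.05. The procedure was tested on simulated data. Alternatives were TMM and total-count scaling, pseudocounts of 0.5 and 5, no filter or one of 50, no trend, 1 fit over all groups, a replicate block, each library left out, and recovered reads tested with DESeq2 1.42.0 or edgeR 4.0.16. The members and lists were chosen with earlier results of these data known. Named genes were the 10 markers, the 3 most similar genes of 4 markers, up to 2 called genes with the largest change per list, list genes near 0 reads, Ctnnb1, Axin2 and Rn45s. Promoters are RefSeq's.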

Additional observations from a re-analysis of the deposited data

How the results depend on the processing

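Between stabilized beta-catenin and adult control, 0 of 10 markers were called, and 1 (Ccr2) with DESeq2, with all groups in 1 fit and without adult control library 1, so that leaving out a library gave 0 to 1. Over all genes those settings called 564, 516 and 402, against 233 in the main fit. Leaving out a library gave 9 to 10 for adult control and 9 throughout for stabilized beta-catenin, each against P6. Total-count scaling gave 8 in both, and a filter of 50 left 7 of 7 and 8 of 8. Replicate numbers did not pair the libraries (correlations of same-numbered deviations from -0.157 to 0.218), and with the replicate block 0, 10 and 9 markers were called, as without it. Small differences from adult control changed sign with stabilized beta-catenin: with a library left out, Cd163 ran from -0.37 to 0.064, Mrc1 from -0.22 to 0.0077 and Lyz2 from -0.25 to 0.35, and Lyz2 was at -0.022 with edgeR and -0.015 with DESeq2. Cd68 of stabilized beta-catenin against P6 turned to -0.15 with total-count scaling. The balance of stabilized beta-catenin against P6, 0.13, became -0.28 with a pseudocount of 5, -0.024 without Timd4 and -0.44 to 0.68 with a library left out. Relative to Cd68 in place of Csf1r, Ccr2 differed by 0.41 for adult control and 2.40 for stabilized beta-catenin, each against P6; relative to Csf1r with a library left out the ranges were -0.48 to 0.016 and 1.14 to 1.88. Against adult control, leaving out a library gave 1.39 to 2.13 for Ccr2 relative to Csf1r with stabilized beta-catenin and -2.53 to -1.41 for the balance, and 1.76 to 2.48 for the balance of adult control against P6. The cause was not tested. At P6, Timd4 rests on 3 reads and Cd14 and Folr2 on at most 12 a library, and the libraries hold fewer reads than the adult ones.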

Other observations

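The S100a8 and S100a9 transcripts, alarmin subunits of granulocytes, were called lower in adult control than at P6, but both reached the filter on low values through P6 libraries alone, so these calls are descriptions. S100a8 had 1.67, 3.03 and 5.04 normalized counts in adult controls and 19.2, 17.3 and 59.4 at P6. Kit, the stem cell factor receptor of mast cells and progenitors, had 25.1, 59.9 and 50.4 normalized counts with stabilized beta-catenin, 48.3, 104 and 40.3 in adult controls, and 498, 473 and 402 at P6. Adult control against P6 differed by -2.93 on the log2 scale in Kit (SE 0.31, adjusted p = 7.09e-05). The mast cell chymase gene Cma1 had 4.999, 5.05 and 4.32 normalized counts in adult controls and 21.9, 15.9 and 37.1 at P6, and reached the filter through P6 libraries alone. Of the 3 mast cell genes that reached it in both groups, 1 was lower, which was Kit, where 31.2% of all genes tested were lower.

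Of all genes tested, 31.3% were higher in adult control than at P6 and 31.2% lower. Of 5 pan-leukocyte genes, 2 were higher and 0 lower (2 and 1 with total-count scaling). They were the integrin gene Itgb2 (1.13, adjusted p = 0.00283) and Ptprc (0.89, adjusted p = 7.63e-04), the common leukocyte antigen, which had 177, 235 and 164 normalized counts with stabilized beta-catenin, 173, 161 and 169 in adult controls, and 91.8, 83.8 and 95.05 at P6. Lymphocyte markers (10 genes) summed to 31.1 to 56.5 normalized counts with stabilized beta-catenin, 24.3 to 31.7 in adult controls and 37.1 to 67.2 at P6. The 1 dendritic cell gene tested, Zbtb46, was lower in adult control than at P6 (-0.52, adjusted p = 0.0445), a call lost with edgeR and DESeq2 and without any 1 library other than adult control library 2. The untested genes of this list leaned the other way at low counts. Xcr1 had 6.67, 4.04 and 5.04 normalized counts in adult controls and 0 in each P6 library. Clec9a had 10.8, 10.1 and 5.04 in adult controls and 1.37, 0 and 0 at P6, so Zbtb46 does not stand for the list. In stabilized beta-catenin against adult control 0 genes of these lists passed limma's threshold, with 1 at an unadjusted p under 0.05 (Zbtb46) and 0 by edgeR or DESeq2.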
